A study of Mus musculus with 6 samples.

Results

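The chemokine receptor gene *Cxcr2* and the genes of 5 of its ligands, *Cxcl1*, *Cxcl2*, *Cxcl3*, *Cxcl5* and *Ppbp*, were compared between F4/80high and F4/80low tumor-associated macrophages (TAMs). The genes were chosen by symbol, as the 6 of the 23424 genes in the count tables that carry these names, and each has 1 row in every table. The cells came from tumors of YUMM1.7, a mouse melanoma cell line, grown in the skin of untreated wild-type C57Bl/6J females that were 8 weeks old when the tumors were started. On day 21, live cells positive for CD45, CD11b and F4/80 and, by the study's methods, negative for lineage markers (Lin-) were sorted into the F4/80high and F4/80low subsets by their F4/80 staining. Each library came from 10 pooled tumors of 1 of 3 independent experiments, so that animals within a pool cannot be told apart, and poly-A RNA was sequenced. There were 3 libraries of each subset, named here by replicate number.

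CXCR2 is a G protein-coupled receptor that is best known on neutrophils, which it guides out of the bone marrow and into inflamed tissue. Its ligands are small secreted CXC chemokines that carry the residues glutamate, leucine and arginine (the ELR motif) just before the first cysteine, and macrophages, fibroblasts and epithelial cells make them within hours of an inflammatory stimulus. In tumors, these ligands are known for drawing in neutrophils and related myeloid cells.

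A run of 7 chemokine genes on chromosome 5 spans 146.6 kb of GRCm38 from 90759360 to 90905938 in the GENCODE M21 annotation. The 5 ligand genes lie in this run, all on the plus strand but not all next to each other. In the order of the chromosome they are *Cxcl5* (ENSMUSG00000029371, 90759360 to 90761624), *Ppbp* (ENSMUSG00000029372, 90768518 to 90770063), *Cxcl3* (ENSMUSG00000029379, 90786103 to 90789600), *Cxcl1* (ENSMUSG00000029380, 90891241 to 90893115) and *Cxcl2* (ENSMUSG00000058427, 90903871 to 90905938). *Cxcr2* (ENSMUSG00000026180) lies on chromosome 1 from 74153989 to 74161246. The codons that make the 5 ligands one family are given here as 39 bases of each coding sequence from the GENCODE M21 transcripts, with the 3 codons of the ELR motif in capitals and the first cysteine codon right after them.
Cxcl1: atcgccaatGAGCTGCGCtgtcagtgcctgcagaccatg
Cxcl2: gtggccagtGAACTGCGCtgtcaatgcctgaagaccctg
Cxcl3: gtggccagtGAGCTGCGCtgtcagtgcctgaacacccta
Cxcl5: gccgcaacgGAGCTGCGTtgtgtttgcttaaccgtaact
Ppbp: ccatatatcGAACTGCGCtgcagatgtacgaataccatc

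The stretches of *Cxcl2* and *Cxcl3* are the most alike, and over their whole coding sequences these genes were identical at 272 of 303 aligned bases, or 89.8%. Of the aligned coding bases, *Cxcl1* was identical at 75.6% to *Cxcl2* and at 72.6% to *Cxcl3*, and pairs with *Cxcl5* or *Ppbp* at 48.3% to 54.1%. The longest identical run between the longest annotated transcripts of *Cxcl2* and *Cxcl3* was 157 bases, against 23 bases between *Cxcl1* and either of them. How the authors' counting treated reads that match both *Cxcl2* and *Cxcl3* is not given in the sources used here, so the division of reads between these genes, and *Cxcl3* as the much scarcer of the pair above all, is uncertain.

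The labelled cell type was checked with 11 macrophage genes, and all 11 were detected in all 6 libraries. *Lyz2*, the lysozyme gene of myeloid cells, ranged from 2046 to 16130 CPM (reads per 1000000 reads of a library), and *C1qb*, a complement subunit made by macrophages, from 138 to 3401 CPM. The summed level of the 11 genes was 8313 to 27750 CPM in the F4/80high libraries, against 8634 to 12760 CPM for F4/80low. Total counts ran from 16045281 to 43604373 per library, and the libraries of replicate 3, which the study draws as a batch of their own, were the smallest. CPM are scaled by TMM, a normalization that sets the bulk of genes equal between libraries, on the reads of the genes tested. The TMM factors of replicate 3 were 0.646 for F4/80high and 0.601 for F4/80low. Those of replicates 1 and 2 were 1.34 and 1.21 for F4/80high, and 1.23 and 1.29 for F4/80low. The low factors raise the CPM of replicate 3 above its unscaled values. Every log2 difference is of F4/80high over F4/80low. Where 3 values are given for a subset, they are those of replicates 1, 2 and 3 in that order.

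Over all 14630 genes tested, the median log2 difference was 0.01 and 50.8% of genes were higher in F4/80high TAMs. With batch in the model, edgeR called 0 genes (0%), and so none of the 6 members, while 1111 genes (7.59%) and 3 of the 6 members had an unadjusted p under 0.05. A call needed a p under 0.05 after Benjamini-Hochberg adjustment over all genes tested and a log2 difference beyond 1 in either direction. DESeq2 with batch called 151 genes (1.03%, and 0.711% as lower in F4/80high) and 1 member, *Cxcl3*, as lower. With the replicate number as a block, edgeR called 76 genes (0.519%, and 0.287% as lower) and 1 member, *Cxcr2*, as lower. DESeq2 with the block called 357 genes (2.44%, and 1.54% as lower) and 2 members, *Cxcr2* and *Cxcl3*, both as lower. *Cxcr2*, *Cxcl2* and *Cxcl3* were lower in F4/80high TAMs in 3 of 3 replicate pairs, which holds for 2322 of all genes tested (15.9%). No member was higher in 3 of 3 pairs (2346 of all genes, 16%), although with library size alone *Cxcl1* would be. The median log2 difference of the 6 members was -0.28, with 3 higher and 3 lower. None of them had subsets that did not overlap, against 337 genes (2.3%) that lay wholly higher and 426 genes (2.91%) wholly lower in F4/80high TAMs.

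**Figure D1:**
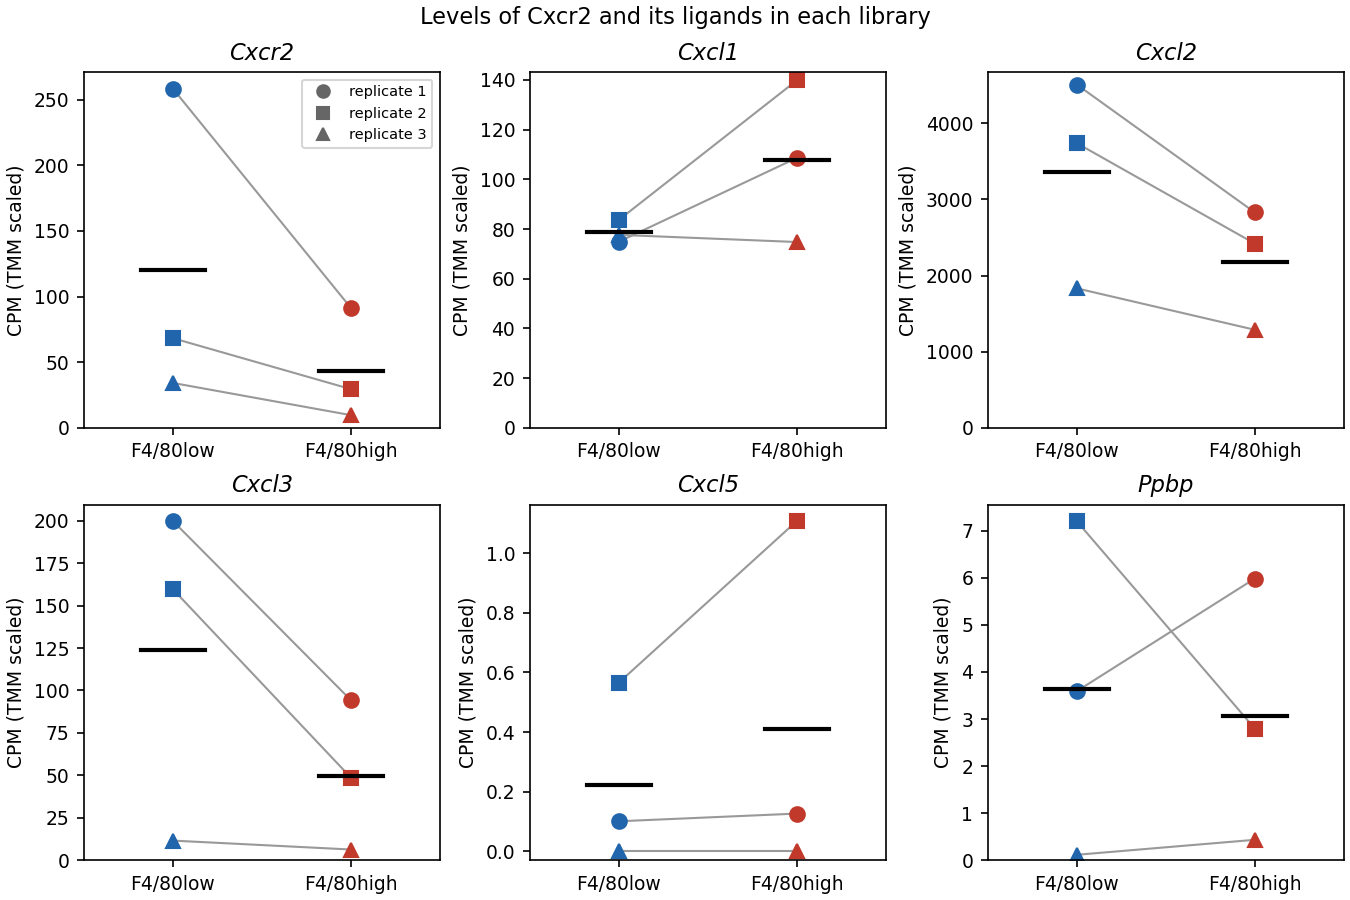
Levels of the receptor gene and its ligand genes in CPM (reads per 1000000 of a library, scaled by TMM, linear axes from 0, each gene on its own scale) in the F4/80low (blue) and F4/80high (red) libraries. Symbols mark the replicate number, grey lines join libraries of one number and black bars are means of 3 libraries. *Cxcr2*, *Cxcl2* and *Cxcl3* fall along all 3 lines, *Cxcl1* rises along 2 and falls slightly along 1, and *Ppbp* goes both ways.

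*Cxcr2* was lower in F4/80high than in F4/80low TAMs in each experiment. In F4/80high replicates 1, 2 and 3 it measured 91.5, 29.5 and 9.74 CPM, from 3622, 1520 and 90 reads. In F4/80low replicates 1, 2 and 3 it measured 258, 68.3 and 34.3 CPM, from 10287, 2779 and 300 reads. F4/80low replicate 1 stood far above every other library, and the subsets overlapped, since F4/80high replicate 1 lay above F4/80low replicates 2 and 3. Within experiments 1, 2 and 3 the F4/80low level was 2.82, 2.31 and 3.52 times the F4/80high level. The mean of F4/80low TAMs was 120.3 ± 121 CPM and that of F4/80high TAMs 43.6 ± 42.6 CPM (SD, n = 3 libraries each).

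The log2 difference of *Cxcr2* was -1.55 (SE 0.53, 95% interval -2.75 to -0.36) with batch in the model, and its edgeR adjusted p was 0.533. With the replicate block it was -1.49 (SE 0.22, edgeR adjusted p = 0.0314), past the threshold. DESeq2 gave an adjusted p of 0.115 with batch and 1.43e-06 with the block. Within batch 1 alone (replicates 1 and 2) the edgeR value was -1.43. The size depended on single libraries, and it was -2.20 when F4/80high replicate 1 was left out and -0.87 when F4/80low replicate 1 was.

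The receptor gene's 2 relatives were scarce. *Cxcr1*, which encodes the other receptor of the family and lies 30.5 kb from *Cxcr2*, had 30, 17 and 0 reads in the F4/80high libraries, against 188, 41 and 0 for F4/80low. It lay lower in F4/80high in both pairs with reads (log2 difference -2.37, SE 1.21, edgeR adjusted p = 0.696). *Ackr1*, a decoy receptor that binds many chemokines without signalling, had 12 reads in all, in F4/80low replicates 2 and 3, too few for a comparison.

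Neutrophil genes lay lower together with *Cxcr2*. All 20 genes of a neutrophil marker list were lower in F4/80high TAMs, with log2 differences from -1.69 to -0.55 and a median of -1.19, and 16 of them were lower in 3 of 3 pairs. With batch in the model edgeR called 0 of the 20 and 12 had an unadjusted p under 0.05, DESeq2 called 9, and with the block edgeR called 7 and DESeq2 13, all lower. *Camp*, an antimicrobial peptide of neutrophil granules, gave -1.57 (edgeR adjusted p = 0.434 with batch and 0.0471 with the block). *Retnlg* and *S100a9*, abundant neutrophil transcripts, gave -1.43 and -1.11. In order of replicate, the summed level of the 20 genes was 2993, 1490 and 1195 CPM in the F4/80high libraries, against 6938, 4513 and 2431 CPM for F4/80low. The sum was thus 2.32, 3.03 and 2.03 times as high in F4/80low TAMs, beside 2.82, 2.31 and 3.52 times for *Cxcr2*, and 3 of the 20 genes had a larger log2 fall than *Cxcr2*.

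Set against *S100a8*, *Camp* and *Csf3r* inside each library, *Cxcr2* showed no difference in one direction over all experiments. The other genes of the neutrophil list were not set against *Cxcr2* in this way. Per 100 reads of *S100a8*, a calcium-binding protein of neutrophils and monocytes, there were 26.7, 25 and 13.8 reads of *Cxcr2* in the F4/80high libraries, against 35.7, 22.4 and 25.7 for F4/80low (two-sided exact permutation test, p = 0.5). Per 100 reads of *Camp* there were 622, 187 and 220 in the F4/80high libraries, against 497, 149 and 309 for F4/80low (p = 1 by the same exact permutation test). For *Csf3r*, another gene of the neutrophil list, there were 40.5, 32.5 and 4.43 in the F4/80high libraries, against 37.9, 49.8 and 8.42 for F4/80low. This ratio was 1.07, 0.653 and 0.527 times as high in F4/80high TAMs (p = 0.6 by the same exact permutation test). No p below 0.1 can come from this test on 3 libraries of each subset, and the ratios were chosen after the values had been seen. The test exchanges libraries without regard to replicate number or batch. In sorted bulk samples, fewer cells of a type and less RNA per cell cannot be told apart, and the part that neutrophil RNA has in the *Cxcr2* difference was not tested. *Mpo*, the myeloperoxidase of neutrophil granules, had 0 reads in F4/80high replicates 2 and 3 and in F4/80low replicate 3.

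**Figure D2:**
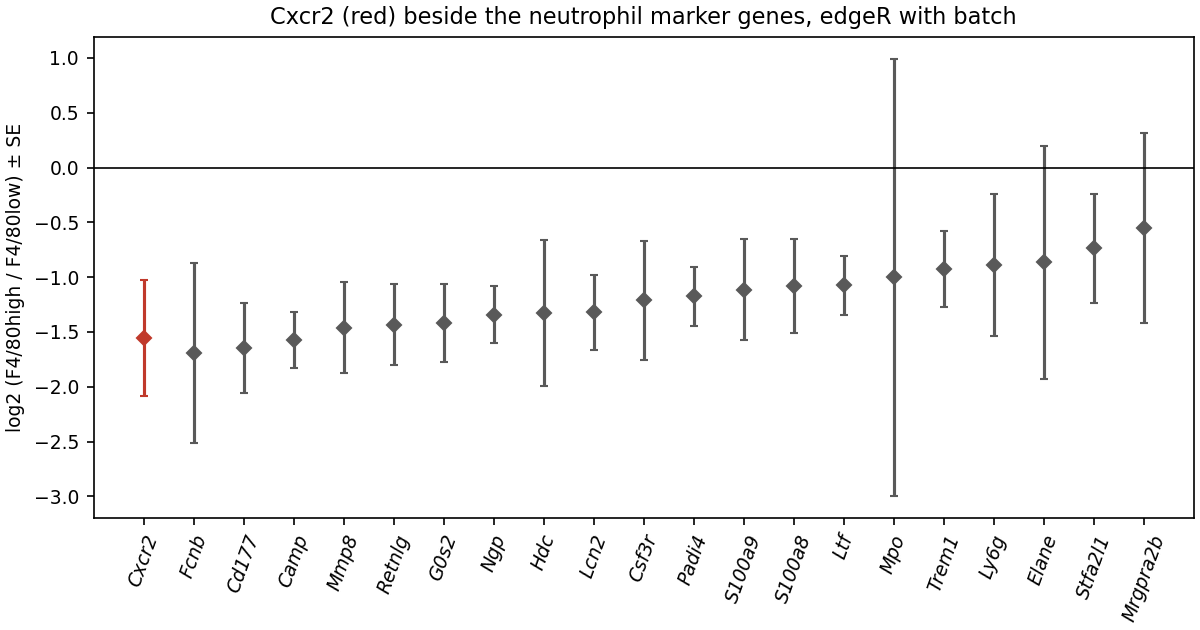
Log2 difference (F4/80high over F4/80low, edgeR with batch, points ± SE) of *Cxcr2* in red and of the 20 neutrophil marker genes in grey, ordered by size. All 21 points lie below the line at 0, from -1.69 to -0.55, and *Cxcr2* at -1.55 stands among the lower ones.

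*Cxcl2*, whose product is made early by activated macrophages, was by far the most abundant member. It measured 2830, 2421 and 1289 CPM in F4/80high replicates 1, 2 and 3, and 4510, 3740 and 1833 CPM in F4/80low replicates 1, 2 and 3. It ranked 14, 28 and 165 among all genes by reads in the F4/80high libraries and 6, 13 and 114 in the F4/80low libraries. In every library it gave between 92.6% and 95.4% of all reads of the 5 ligands.

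*Cxcl2* was lower in F4/80high TAMs in each experiment, by a narrow range of ratios. The F4/80low level was 1.59, 1.55 and 1.42 times the F4/80high level in experiments 1, 2 and 3. The mean of F4/80low TAMs was 3361 ± 1378 CPM and that of F4/80high TAMs 2180 ± 798 CPM (SD, n = 3 libraries each), and the subsets overlapped through the low F4/80low replicate 3. The log2 difference was -0.60 (SE 0.21, 95% interval -1.09 to -0.12, unadjusted p = 0.0193, adjusted p = 0.555 by edgeR). Over 19 alternatives it lay between -0.67 and -0.51 and was not called in any of them, with the lowest adjusted p at 0.066.

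*Cxcl3*, the close relative of *Cxcl2*, was also lower in F4/80high TAMs in each experiment. It measured 94.3, 48.7 and 6.28 CPM in the F4/80high libraries, against 199.9, 159.7 and 11.5 CPM for F4/80low. Both libraries of replicate 3 lay far below the others, with 58 and 101 reads. The F4/80low level was 2.12, 3.28 and 1.84 times the F4/80high level in experiments 1, 2 and 3, and the subsets overlapped. The log2 difference was -1.20 (SE 0.30, 95% interval -1.87 to -0.53) with an unadjusted p of 0.0029 and an adjusted p of 0.441 by edgeR. DESeq2 put *Cxcl3* past the threshold with batch (adjusted p = 0.0249) and with the block (adjusted p = 0.000228), while edgeR with the block gave 0.0644.

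*Cxcl1*, the most studied mouse ligand of CXCR2, did not share this direction. It measured 109, 139.8 and 74.8 CPM in the F4/80high libraries, against 74.9, 83.7 and 77.7 CPM for F4/80low. The F4/80low libraries lay within a few CPM of each other, while F4/80high replicates 1 and 2 stood above them and replicate 3 did not. The log2 ratios were 0.54, 0.74 and -0.06 in experiments 1, 2 and 3, and that of experiment 3 was 0.04 with library size alone. The fit gave 0.42 (SE 0.24, 95% interval -0.13 to 0.97, edgeR adjusted p = 0.705), and the interval included 0. *Cxcl1* was not called in any of 19 alternatives, in which its log2 difference lay between 0.21 and 0.65.

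*Cxcl5* and *Ppbp* were too scarce or too uneven to compare. *Cxcl5*, a ligand made mostly by epithelial cells, had 5, 57 and 0 reads in the F4/80high libraries, against 4, 23 and 0 for F4/80low. The 0 reads of replicate 3 allow up to 0.187 CPM in the F4/80high library and 0.185 CPM in its pair, for counting error only. These limits take 3 reads of the unscaled total, and on the scale of the other CPM given here they would be higher. Its log2 difference was 0.87 (SE 1.82, 95% interval -3.31 to 5.04, edgeR adjusted p = 0.935).

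*Ppbp* encodes the platelet precursor of a neutrophil-activating peptide and is stored in platelet granules. It had 237, 144 and 4 reads in the F4/80high libraries, against 143, 293 and 1 for F4/80low. The log2 ratios of the 3 experiments were 0.74, -1.37 and 1.92, so the pairs disagreed in direction, and the fit gave 0.06 (SE 0.64, 95% interval -1.39 to 1.5, edgeR adjusted p = 0.993). Of 11 platelet and megakaryocyte genes tested, 5 were higher and 6 lower in F4/80high TAMs, none was called by any of the 4 fits, and their summed level was 16.3 to 51.5 CPM in the F4/80high libraries, against 30.7 to 50.03 CPM for F4/80low. The part of platelet RNA in the *Ppbp* reads was not tested.

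*Pf4* lies between *Ppbp* and *Cxcl3* and encodes a platelet chemokine without the ELR motif, which macrophages can also express. It had 4045, 18666 and 249 reads in the F4/80high libraries, against 689, 4966 and 16 for F4/80low. Its log2 ratios were 2.56, 1.57 and 3.88, opposite to those of its neighbour *Cxcl3* in each experiment. The fit gave 2.28 (SE 0.77, edgeR adjusted p = 0.532 with batch), and with the block it was called at 2.50 (edgeR adjusted p = 0.0322). Genes of this short stretch of chromosome 5 therefore lay on both sides of 0.

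**Figure D3:**
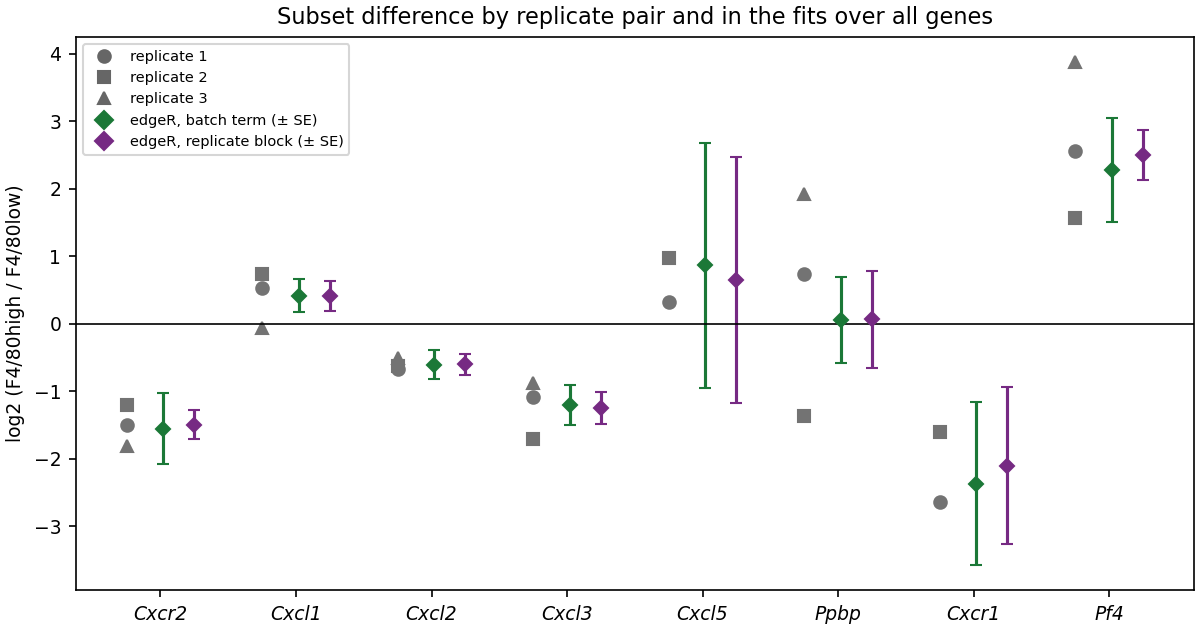
Log2 ratio of F4/80high over F4/80low for the members, *Cxcr1* and *Pf4*. Grey symbols are the single replicate pairs, green diamonds the edgeR fit with batch and purple diamonds the edgeR fit with the replicate block, both ± SE. All pairs of *Cxcr2*, *Cxcl2* and *Cxcl3* lie below 0 and all pairs of *Pf4* above it, and the pairs of *Ppbp* lie from -1.37 to 1.92.

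The ratios between ligand reads inside each library lay in the same direction between the subsets in each experiment. For 100 reads of *Cxcl2* there were 3.84, 5.77 and 5.8 reads of *Cxcl1* in the F4/80high libraries, against 1.66, 2.24 and 4.24 for F4/80low. The ratio was 2.31, 2.58 and 1.37 times as high in F4/80high TAMs, and the subsets overlapped, since the value of F4/80high replicate 1 was under that of F4/80low replicate 3 (two-sided exact permutation test, p = 0.2). Against *Cxcl3*, *Cxcl1* was 3.07, 5.48 and 1.77 times as high in F4/80high TAMs (two-sided exact permutation test, p = 0.4). *Cxcl3* itself made 3.33, 2.01 and 0.487 reads per 100 of *Cxcl2* in the F4/80high libraries, against 4.43, 4.27 and 0.629 for F4/80low (p = 0.5 by the same exact permutation test). Such ratios within a library need no scaling between libraries, but they were chosen after the values had been seen, and the exact permutation test cannot give a p below 0.1 here. It exchanges libraries without regard to replicate number or batch, so it does not test whether the pairs agree. The ratios per experiment restate the log2 ratios of the members given above.

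**Figure D4:**
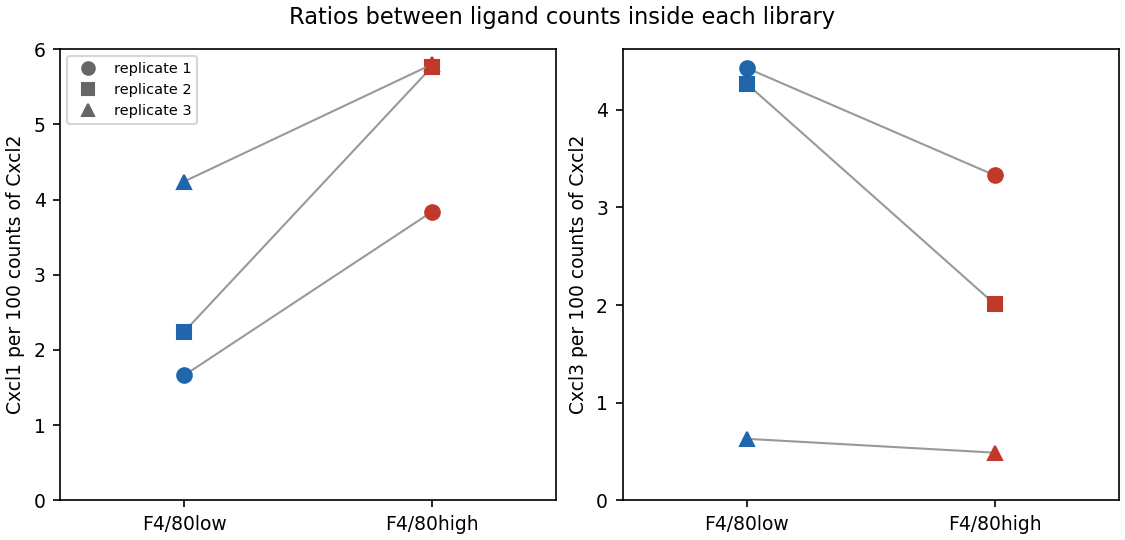
Reads of *Cxcl1* (left) and of *Cxcl3* (right) per 100 reads of *Cxcl2* in each library, F4/80low in blue and F4/80high in red, with grey lines joining libraries of one replicate number. The *Cxcl1* ratio rises along all 3 lines, from 1.66, 2.24 and 4.24 to 3.84, 5.77 and 5.8, and the *Cxcl3* ratio falls along all 3.

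Between genes, levels were set side by side as CPM per kb of the length in the deposited tables. *Cxcl2* came first in 6 of 6 libraries, at 623 to 1370 CPM per kb in the F4/80high libraries, against 886 to 2180 for F4/80low. *Cxcl1* came next, at 39.9 to 74.6 CPM per kb over the 6 libraries and second in 4 of them, and *Cxcr2* ranged from 3.19 to 84.8 and *Cxcl3* from 1.79 to 57.2 CPM per kb. *Ppbp* lay from 0.105 to 6.65 CPM per kb, and *Cxcl5* came last in 6 of 6 libraries with at most 0.595. Apart from *Cxcl2*, whose range touched no other, each neighbour in this order overlapped the next. The deposited lengths include introns kept in some transcripts, and for *Cxcl3* the length of 3498 bases equals the whole gene against 1016 bases of the spliced coding transcript. With spliced lengths *Cxcl3* stood ahead of *Cxcr2* in every library but F4/80low replicate 3 (15.4 CPM per kb for *Cxcr2* and 11.4 for *Cxcl3*), as it did with deposited lengths in both libraries of replicate 2, while *Cxcl2* stayed first and *Cxcl5* last in every library.

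The promoters of the 3 most expressed ligands were examined because *Cxcl2* and *Cxcl3* lay lower in F4/80high TAMs in each experiment and *Cxcl1* did not. Of the 6 members, 5 had a promoter in the RefSeq table for GRCm38.p6, all but *Cxcl5*. The windows below, each of 85 bases on the plus strand upstream of the gene, are chr5:90891154-90891238 for *Cxcl1*, chr5:90903782-90903866 for *Cxcl2* and chr5:90786008-90786092 for *Cxcl3*. Capitals mark GGGAATTTCCC, the longest run of letters that the upstream bases of all 3 genes share and a form of the NF-kappaB site, and ATAAAAG, a form of the TATA box.
Cxcl1: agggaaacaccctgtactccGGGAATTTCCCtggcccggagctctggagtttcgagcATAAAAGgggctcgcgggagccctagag
Cxcl2: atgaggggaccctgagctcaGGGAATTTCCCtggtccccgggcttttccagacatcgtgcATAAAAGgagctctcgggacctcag
Cxcl3: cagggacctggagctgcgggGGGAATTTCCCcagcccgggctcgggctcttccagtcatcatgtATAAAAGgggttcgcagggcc

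The letters GGGAATTTCCC began 71 bases upstream of the RefSeq start in *Cxcl1*, 97 in *Cxcl2* and 73 in *Cxcl3*, and ATAAAAG began 34, 57 and 29 bases upstream, with no overlap of the motifs. Both strands of 250 upstream bases were searched in 32851 promoters. GGGAATTTCCC or its reverse complement stood in 14 of them (0.0426%), ATAAAAG or its reverse complement in 1588 (4.83%), and both in 3 (0.00913%), which were these 3 ligands. *Ppbp* held ATAAAAG on the opposite strand 86 bases upstream, and neither motif was found in the window of *Cxcr2*. The motifs were taken from the sequences of these ligands themselves, so that their presence there is no finding. The part of these motifs in the levels of the ligands was not tested. A match is a description of the letters and does not show that a factor binds there.

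Among other receptors that draw neutrophils, 5 of 6 lay lower in F4/80high TAMs, with a median log2 difference of -0.69. *Ltb4r1*, the receptor of leukotriene B, gave -1.55 (edgeR adjusted p = 0.434 with batch) and was called with the block (adjusted p = 0.0302) and by DESeq2 (adjusted p = 0.000146). It measured 64.4, 40.2 and 6.17 CPM in the F4/80high libraries, against 156, 134 and 20.3 CPM for F4/80low. *Ptafr*, the receptor of platelet-activating factor, gave -0.87, *Fpr2*, a formyl peptide receptor, -0.998, and *C5ar1*, the receptor of complement C5a, 0.07, and none of these was called by edgeR. DESeq2 with the block called *Fpr2* as lower (adjusted p = 0.00575).

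Of 27 tested genes that pass on or limit the CXCR2 signal, 21 were lower and 6 higher in F4/80high TAMs, with a median log2 difference of -0.27. EdgeR called none with batch (6 had an unadjusted p under 0.05) or with the block, and DESeq2 called 2, both lower. The lowest p among genes on the lower side belonged to *Rgs18*, a regulator of G protein signalling (-1.22), *Fgr*, a Src family kinase of myeloid cells (-1.12), and *Pik3r6*, a subunit of the G protein-coupled PI3 kinase (-1.03). On the higher side they were *Arrb2*, the arrestin that takes CXCR2 off the surface (0.50), *Gng2* (0.41) and *Gnb1* (0.12), both G protein subunits.

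Of 24 genes that induce the ligands, 20 were lower and 4 higher in F4/80high TAMs, with a median log2 difference of -0.42, and none was called by edgeR or DESeq2 (2 had an unadjusted p under 0.05 by edgeR with batch). Of the 24 genes, 11 were lower and 1 was higher in 3 of 3 pairs, which holds for 15.9% and 16% of all genes tested. *Cebpb*, a transcription factor of inflammatory genes and 1 of the 11, gave -0.84 (edgeR adjusted p = 0.504). *Il17ra*, a subunit of the interleukin-17 receptor, gave -0.90, and *Myd88*, the adaptor of Toll-like and interleukin-1 receptors, -0.47. *Tnf*, a cytokine that raises ligand transcription, lay on the other side at 0.53. Of 12 genes that lower the ligands or their mRNA, 6 lay on each side and none was called by either tool (2 had an unadjusted p under 0.05 by edgeR with batch), with *Il10*, the anti-inflammatory cytokine, at 0.86, *Nfkbia*, an NF-kappaB inhibitor, at -0.78, and *Zfp36*, which speeds the decay of chemokine mRNA, at -0.36.

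Proteases that cut CXCR2 ligands lay on both sides as well, with 5 of 10 tested genes higher and 5 lower. *Mmp9* and *Mmp8*, stored in neutrophil granules, gave -1.51 and -1.46, and both were called with the block and by DESeq2. *Mmp8* is also on the neutrophil list, whose level is given above. *Mmp12* and *Mmp13*, metalloproteases that macrophages make, gave 1.60 and 1.38 and were not called by edgeR (adjusted p = 0.628 and 0.504 with batch) or by DESeq2 with batch. DESeq2 with the block called both as higher (adjusted p = 0.00141 and 9.28e-05).

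**Figure D5:**
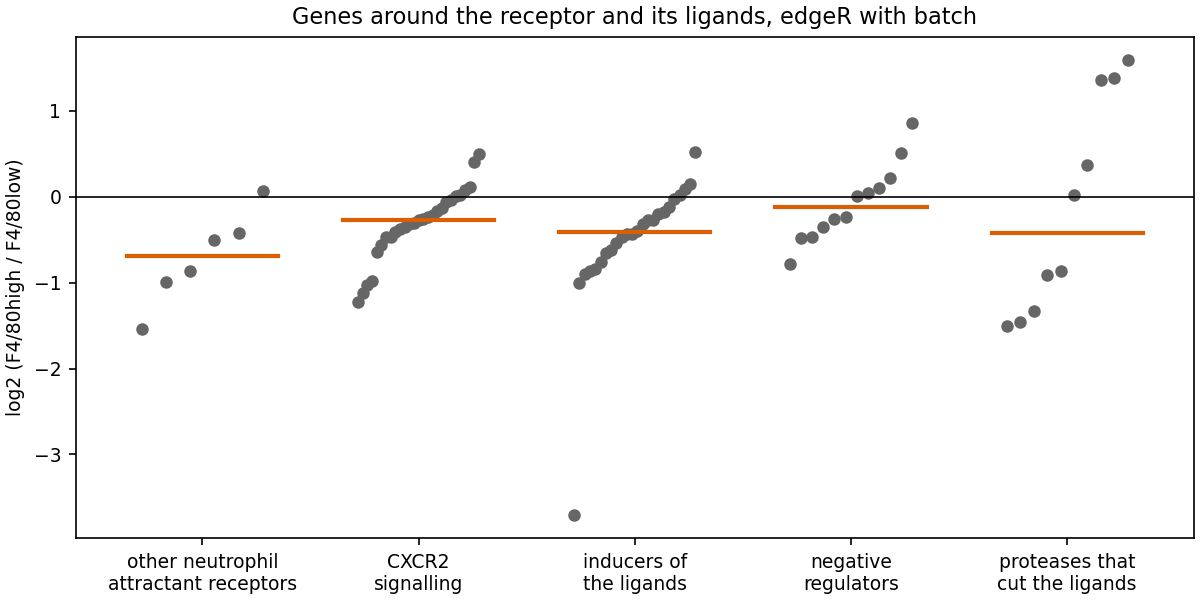
Log2 difference (F4/80high over F4/80low, edgeR with batch) of each gene of 5 lists around the receptor and its ligands, with list medians in orange. Most genes of the first 3 lists lie below 0 (medians -0.69, -0.27 and -0.42), and those of the regulators and proteases lie on both sides. The lowest point is *Il17a*, which was at most 0.221 CPM in any library.

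Markers of other cells were compared in the same fits. A sort for CD45 and CD11b is meant to remove fibroblasts, melanoma cells, endothelial cells and keratinocytes, but reads of fibroblast genes were present in all 6 libraries. All 7 eosinophil genes were lower in F4/80high TAMs (median -1.65, summed level 89.98 to 177 CPM in F4/80high libraries, against 252 to 603 CPM for F4/80low), and DESeq2 called 3 of them. All 7 mast cell and basophil genes were lower at a median of -0.80 and all 7 fibroblast genes at -0.52. None of these was called by edgeR or DESeq2 with batch. With the block, the median of the mast cell and basophil genes was -1.26, and DESeq2 called 1 of them as lower. Fibroblast genes summed to 451 to 1542 CPM in F4/80high libraries, against 1066 to 1908 CPM for F4/80low. Melanoma cell genes in the tables summed to 19.6, 23.3 and 168 CPM in F4/80high libraries, against 15.2, 13.2 and 106 CPM for F4/80low, nearly all of it from *Mitf*, which macrophages also express, while *Pmel* and *Sox10* were at most 1.82 and 1.26 CPM and *Mlana* was at 0 reads in 5 of the 6 libraries. Endothelial genes summed to 11.8 to 46.7 and 17.9 to 23.0 CPM, and keratinocyte genes to 5.19 to 8.41 and 6.38 to 10.1 CPM. The part of these cells in the member levels was not tested.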

How the data were processed

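The authors deposited a table of raw read counts for each of the 6 libraries, with gene length and biotype, and these counts were used as deposited. The aligner, counting rule, strand and annotation are not given in the sources used here. Positions and biotypes were taken from GENCODE M21, matched by gene ID. In R 4.3.3, 14630 genes (protein-coding, 10 or more counts in total) were fitted with edgeR 4.0.16 (TMM, quasi-likelihood test) with batch (replicates 1 and 2 against 3, from the study's PCA legend) and subset. Calls needed a Benjamini-Hochberg adjusted p under 0.05 with a log2 fold change beyond 1. DESeq2 1.42.0, the replicate block, other scalings and filters, all biotypes, batch 1 alone and leaving out each library were alternatives. DESeq2 gave *Cxcl5* no adjusted p with batch or with the block, and the filterByExpr alternative did not include *Cxcl5*. The code of the fits was checked on simulated counts with the same dispersion for all genes and no effect of replicate number within a batch. These counts were simpler than the data, so the check does not show how well the fits suit them.

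Libraries of one number were taken to come from one experiment, as the paper's 3 independent experiments imply. After subtracting each subset's mean, the correlation within replicates 1, 2 and 3 was 0.745, 0.729 and 0.907 over 10067 genes. Libraries of different numbers were not compared. Replicate 3 is a batch of its own, which alone can raise these values, so they do not show the pairing of replicates 1 and 2. With 10 pooled tumors in each experiment, p-values of the fits with batch measure the spread between pools. Those of the block fits measure how the subset difference varies between replicate numbers. Named genes are the members, their other receptors and *Pf4*, up to 3 genes per list and direction with the smallest p, and the 3 most abundant markers. *Il17a*, *Mpo*, *S100a8*, *Csf3r* and *Mlana* were named after their values were seen. The members and lists were chosen with earlier results of these data known. *Cxcl15* was not analysed here. Not every gene that the rule selects is reported here.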

Additional observations from a re-analysis of the deposited data

How the results depend on the processing

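The count of called genes was 0 with edgeR and batch, 151 with DESeq2, 76 with the replicate block, 357 with DESeq2 and the block, and 22 in batch 1 alone with the block, an alternative chosen after seeing the data. Leaving out single libraries gave 0 to 57 (the latter without F4/80high replicate 1). Members called numbered 1, 1 and 2 under the first 3 of these alternatives and 0 under each left-out library. *Cxcl3* passed the threshold with DESeq2 (-1.20) and with DESeq2 and the block (-1.25), and *Cxcr2* with the block in edgeR (-1.49) and DESeq2 (-1.49). The block changed no other member's call. *Ppbp* turned to -0.24 without the batch term, -0.30 in batch 1 alone and -0.31 there with the block, and lay between -0.30 and 0.68 without single libraries. *Cxcl5* lay between -1.34 (without F4/80high replicate 2) and 2.49.

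Without single libraries, list medians lay between -1.63 and -0.70 for neutrophil, -3.02 and 0.037 for mast cell and basophil, and -1.51 and 0.50 for platelet genes, -0.96 and -0.49 for other neutrophil receptors, and -1.22 and -0.16 for proteases. In batch 1 alone the receptors gave -0.96 and, with the block, -0.88, and platelet genes -0.96 with the block. With filterByExpr platelet genes gave 0.38 and proteases -0.87, and proteases gave -0.85 with all biotypes and -0.86 with the deposited biotypes. The causes were not tested. Few reads limit *Cxcl5*, *Ppbp* and *Cxcr1*, and 58 and 101 reads limit *Cxcl3* in replicate 3.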

Other observations

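Some genes outside the receptor and ligand family had profiles of a similar shape over the 6 libraries once the batch difference was removed. The profile of *Cxcr2* was closest to those of *Hmha1* (Pearson's r = 0.9983), *Vps37c*, *Fem1c*, *Vsig10* and *Scnn1a* (r = 0.9973). *Cxcl2* was closest to *Pi4kb* (r = 0.9999), *Add1*, *Svil* and *Adgra3* (r = 0.998), and *Cxcl3* to *Mmp25*, a membrane-type metalloprotease of leukocytes (r = 0.9974), *Ctdsp2*, *Tmcc1*, *Lrif1* and *Gsr*, the glutathione reductase gene (r = 0.9965). These genes were picked for values among the highest of all genes whose mean log2 CPM was 1 or more. High values follow in part from this choice over only 6 libraries, which share experiments and scaling. The correlation does not compare sizes, and *Hmha1* had a log2 difference of -0.485 beside -1.55 for *Cxcr2*. The values are given as a description with no test.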
